A study of Mus musculus with 12 samples.

Results

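The mRNAs of 9 genes that carry the insulin signal from the receptor to the FoxO transcription factors were followed in the liver of mice lacking Phgdh in hepatocytes. The genes were Insr, Irs1, Irs2, Pik3r1, Pik3ca, Akt1, Akt2, Foxo1 and Foxo3, chosen by name from the course of the pathway, and they were 9 of 16916 genes tested and of 32524 genes on the array. A probe belonged to a gene when the RefSeq accession of the array design was an accession of that gene. This gave 15 probes, all of which were well above background on all 12 arrays.

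Insulin binds the receptor tyrosine kinase encoded by Insr, which phosphorylates the adaptors Irs1 and Irs2. The adaptors recruit phosphoinositide 3-kinase (PI3K), whose lipid product brings the kinases Akt1 and Akt2 to the membrane, where they are activated. Active Akt phosphorylates Foxo1 and Foxo3 and keeps them out of the nucleus, so that in fasting liver, when insulin is low, FoxO drives genes of glucose output, and it also drives Irs2 and Insr themselves. The signal runs mainly through phosphorylation, which an mRNA array does not read.

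Liver RNA came from 6 Floxed and 6 LKO mice, all male C57BL/6 animals aged 30 weeks on a casein chow. Floxed mice carried conditional alleles only (Phgdh flox/flox) and were littermate controls. LKO mice carried the same alleles and a Cre transgene under the albumin promoter (Alb+/Cre;Phgdh flox/flox). The albumin promoter acts in hepatocytes, so the other cells of an LKO liver keep Phgdh, the gene of the entry enzyme of serine synthesis. Each array held the RNA of 1 mouse in a single color, slide 1 held Floxed 1 to 4, slide 2 held Floxed 5 and 6 with LKO 1 and 2, and slide 3 held LKO 3 to 6. Slides 1 and 3 hold 1 genotype each, so that slide and genotype can be compared within slide 2 only. In whole liver, fewer cells of a type and less RNA per cell cannot be told apart.

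Levels are given as log2 intensity after quantile normalization over the 12 arrays, and a difference is the mean of LKO minus the mean of Floxed mice on that scale. Levels of different probes are not comparable, so each probe is compared only with itself. A gene with several probes is represented by its brightest. A gene is named called when its unadjusted p from limma, a linear model with a shared variance estimate, lay below 0.05, which is the criterion of the study's array methods.

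All 10 hepatocyte markers examined were well above background on all 12 arrays, and their summed level gave p = 0.918 between genotypes in an exact permutation test. The sum cannot show an equal share of hepatocytes. It rests on the brightest probes, whose values quantile normalization makes nearly the same on every array, as for Serpina1a at 18.77 with an SD of 0 in both genotypes. Singly, the markers had differences from -0.30 to 0.11, and 0 were called. The dimmest Floxed array was that of Floxed 2, with a 75th percentile of intensity of 258 and 21614 probes well above background, and the dimmest LKO array was that of LKO 5, with 239 and 22399. On the other arrays the 75th percentile lay between 283 and 473. The mRNA of the deleted gene, Phgdh, was 5.18 ± 0.23 (SD, n = 6) in Floxed mice, against 4.70 ± 0.41 (SD, n = 6) after deletion, which differ by -0.48 (limma, unadjusted p = 0.0179, adjusted p = 0.451 with Benjamini-Hochberg adjustment). On slide 2 the Phgdh difference was -0.05, and without both dimmest arrays it was -0.37 and not called (limma, unadjusted p = 0.0820).

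Of the 9 genes, 2 were called, Insr and Pik3r1, and both were lower in LKO mice. Over all tested genes, 8.35% were called in either direction, 3.43% lower and 4.92% higher. These are 1413 genes, 581 lower and 832 higher, and when arrays were instead scaled to a common 75th percentile they became 316 lower and 1127 higher. Once the limma p was adjusted by Benjamini-Hochberg, 0 of the 9 genes passed 0.05 and so did 0% of all tested genes, with the adjusted p of the 9 between 0.416 and 0.977. The methods' t-test called the same number of the 9 genes, 2, and left 3 genes of the whole table after adjustment. For 0 of the 9 genes were the values of the genotypes free of overlap, against 0.296% of all tested genes. The difference was negative for 6 genes and positive for 3, and their median log2 fold change was -0.14, against -0.0035 over all tested genes. With every probe tested on its own, 2 of the 15 probes were called, both lower, where 4.07% of all probes were called lower.

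**Figure D1:**
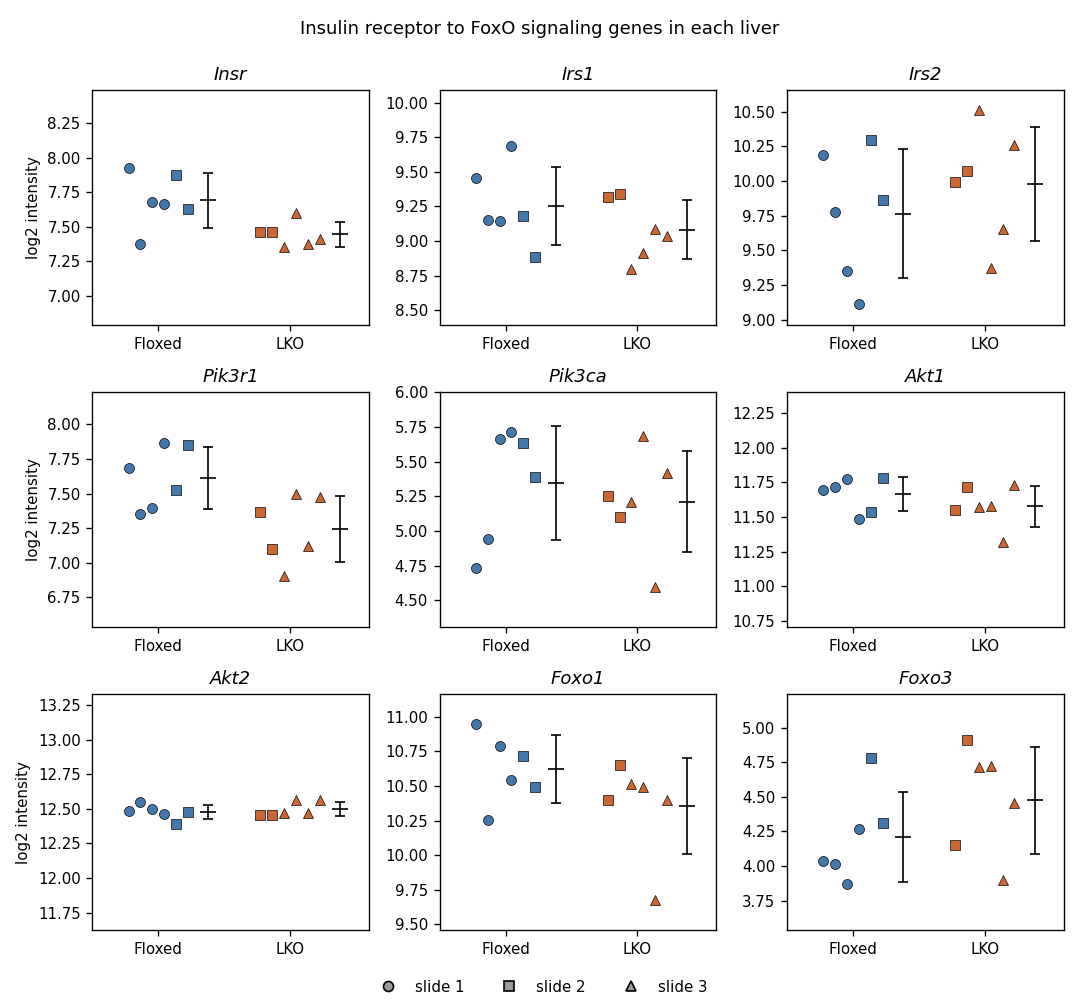
Log2 intensity of the 9 genes in each liver (y axis, with the same span in each panel), 6 Floxed mice in blue and 6 LKO mice in orange, with the mean and SD of each genotype beside the points and the slide given by the symbol. For Insr and Pik3r1 the LKO points sit below the Floxed median in 6 of 6 mice, while the points of Akt2 lie within 12.39 and 12.57.

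Insr encodes the insulin receptor (RefSeq NM_010568, 3 probes). On its brightest probe the Floxed livers ranged from 7.37 to 7.93 with a median of 7.67, and the LKO livers from 7.36 to 7.60 with a median of 7.44. All 6 LKO values lay below the Floxed median, but the ranges overlapped, because Floxed 2 at 7.37 was as low as the LKO mice and LKO 3 alone lay below it. The mean was 7.69 ± 0.20 (SD, n = 6) in Floxed and 7.44 ± 0.088 (SD, n = 6) in LKO mice. The difference of -0.25 (SE 0.09, 95% confidence interval -0.45 to -0.04) is a fold of 0.843, with an unadjusted limma p of 0.0211 and an adjusted p of 0.478. By an exact permutation test, two-sided here and throughout, p was 0.0281 for 6 against 6 mice.

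The other Insr probes gave similar differences, -0.28 (limma, unadjusted p = 0.0552) and -0.25 (limma, unadjusted p = 0.0711), neither of which was called. They read the same RNA of the same mice and are not further replicates. Across the 12 arrays the log2 difference between the brightest and the second Insr probe had an SD of 0.13, and that between the brightest and the third an SD of 0.22. The second probe was lowest among Floxed mice on the dim array of Floxed 2, at 6.01, and among LKO mice on the dim array of LKO 5, at 5.86. Within slide 2, LKO 1 and LKO 2 were both at 7.46 on the brightest probe, below Floxed 6 at 7.63 and Floxed 5 at 7.88. The slide 2 difference was -0.29 for the brightest probe and -0.27 for each of the others, close to that over all mice. With slide as a fixed block the Insr difference was not called (limma, unadjusted p = 0.121). The call also ended without Floxed 5 (-0.21, limma, unadjusted p = 0.0510), and without both dimmest arrays it was -0.30 (limma, unadjusted p = 0.00499).

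Irs1 and Irs2 encode the main insulin receptor substrates of the hepatocyte, docking proteins that carry the signal to PI3K. Both have a short window before their transcription start in the RefSeq promoter table (assembly GRCm38.p6), and both windows hold a letter string that FoxO factors are known to bind. The strings searched, on either strand, were CAAAACA, the core of the insulin response sequence, and GTAAACA, the core of the FoxO consensus. Of 32851 windows of 300 bases in the table, 6.28% held CAAAACA or its reverse TGTTTTG, and 3.65% held GTAAACA or its reverse TGTTTAC. Windows were found for 8 of the 9 genes, all but Insr. Akt2 had 4 windows, Akt1 and Pik3r1 had 2 each, and the others had 1, so that the genes had unequal room for a match. CAAAACA stood in the windows of Irs1, at 2 places, and Irs2, and GTAAACA in 1 of the 2 windows of Akt1. No match of one string overlapped a match of the other in these windows. They are shown beside Igfbp1 and G6pc, a pair of FoxO target genes of liver whose levels are given further on, because FoxO binding to such strings before its target genes is the known last step of the pathway. The bases read 5′ to 3′ on the strand of the gene, with the string in capitals and 20 bases on each side.
Irs1, chr1:82291524-82291570, minus strand: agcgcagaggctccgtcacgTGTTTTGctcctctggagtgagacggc
Irs1, chr1:82291445-82291491, minus strand: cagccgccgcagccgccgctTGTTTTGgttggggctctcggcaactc
Irs2, chr8:11008940-11008986, minus strand: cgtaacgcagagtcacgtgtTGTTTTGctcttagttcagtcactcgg
Akt1, chr12:112675019-112675065, minus strand: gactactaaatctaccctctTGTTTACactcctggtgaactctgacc
Igfbp1, chr11:7197659-7197705, plus strand: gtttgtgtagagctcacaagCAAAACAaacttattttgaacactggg
G6pc, chr11:101367522-101367568, plus strand: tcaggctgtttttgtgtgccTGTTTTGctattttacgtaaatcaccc

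The string began 111 and 32 bases before the start of Irs1, 37 before that of Irs2, 108 before that of Igfbp1 and 174 before that of G6pc. For Akt1 it began 161 bases before 1 of 2 starts. The match of Igfbp1 reads CAAAACA on the strand of the gene, whereas those of Irs1, Irs2 and G6pc read TGTTTTG, the same string on the other strand. A match of letters is a description and not a binding site, and the arrays did not measure binding. Of 30 FoxO target genes with a window, 4 held CAAAACA (Irs2, G6pc, Igfbp1 and Ccng2) and 3 held GTAAACA (Sesn1, Txnip and Bcl2l11), against 7.20% and 4.05% of all genes in the table.

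For Irs1 (NM_010570, 2 probes) the Floxed livers ranged from 8.88 to 9.69 with a median of 9.17, and the LKO livers from 8.80 to 9.34 with a median of 9.06. The ranges overlapped widely, and the highest LKO values were those of LKO 1 and LKO 2 on slide 2. The difference of -0.17 (SE 0.14, 95% confidence interval -0.47 to 0.13) was not called, with an unadjusted limma p of 0.244 and an adjusted p of 0.888. The sign of the Irs1 difference turned with the slide. Within slide 2 the LKO mice were higher by 0.29, and LKO mice of slide 3 were lower than Floxed mice of slide 1, with a difference of -0.40. The dimmer Irs1 probe gave -0.40 over all mice (limma, unadjusted p = 0.0617) and 0.36 within slide 2. Floxed 1 stood highest on this dimmer probe at 7.06, next to 6.50 in Floxed 4.

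Irs2 (NM_001081212, 1 probe) varied more between mice of a genotype than 90.1% of the tested genes. Floxed livers ranged from 9.11 to 10.30 with a median of 9.82, and LKO livers from 9.37 to 10.51 with a median of 10.03. The lowest and the highest mouse, Floxed 4 and LKO 3, belonged to different genotypes, but most other values were shared between the ranges. The difference of 0.21 (SE 0.23) was not called, with an unadjusted limma p of 0.368 and an adjusted p of 0.938, and its 95% confidence interval from -0.28 to 0.71 leaves room for a change in either direction. On slide 2 the Irs2 difference was -0.05.

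Pik3r1 encodes the alpha regulatory subunit of PI3K, which binds the phosphorylated adaptors and holds the catalytic subunit. It was read by 1 probe, designed on NM_001077495. The Floxed livers ranged from 7.36 to 7.86 with a median of 7.60, and the LKO livers from 6.90 to 7.50 with a median of 7.25. LKO 2, LKO 3 and LKO 5, at 7.10, 6.90 and 7.12, lay below every Floxed mouse, while the other LKO mice fell inside the Floxed range, and all 6 were below its median. The mean was 7.61 ± 0.22 (SD, n = 6) in Floxed and 7.24 ± 0.24 (SD, n = 6) in LKO mice. The difference of -0.37 (SE 0.13, 95% confidence interval -0.65 to -0.09) is a fold of 0.774, with an unadjusted limma p of 0.0130 and an adjusted p of 0.416. By the exact permutation test p was 0.0260.

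On slide 2 alone the Pik3r1 level was 7.37 and 7.10 in LKO mice and 7.53 and 7.85 in Floxed mice, without overlap, and the difference was -0.46. LKO mice of slide 3 were lower than Floxed mice of slide 1, with a difference of -0.33. Pik3r1 stayed called whichever single array was omitted, with differences from -0.42 to -0.30 and unadjusted limma p from 0.00740 to 0.0323. It was not called with slide as a fixed block (-0.46, limma, unadjusted p = 0.0810), where the comparison rests on the 4 mice of slide 2. With a single probe, the call cannot be checked on another stretch of the Pik3r1 transcript.

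Pik3ca encodes the alpha catalytic subunit, the enzyme that Pik3r1 holds (NM_008839, 1 probe). Floxed livers ranged from 4.73 to 5.71 with a median of 5.51, and LKO livers from 4.60 to 5.69 with a median of 5.23. The lowest values were those of LKO 5, Floxed 1 and Floxed 2, the 3 dimmest arrays, at 4.60, 4.73 and 4.94. The difference of -0.14 (SE 0.20) was not called, with an unadjusted limma p of 0.521 and an adjusted p of 0.962, and its 95% confidence interval ran from -0.58 to 0.31. On slide 2 it was -0.34, larger than over all mice.

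**Figure D2:**
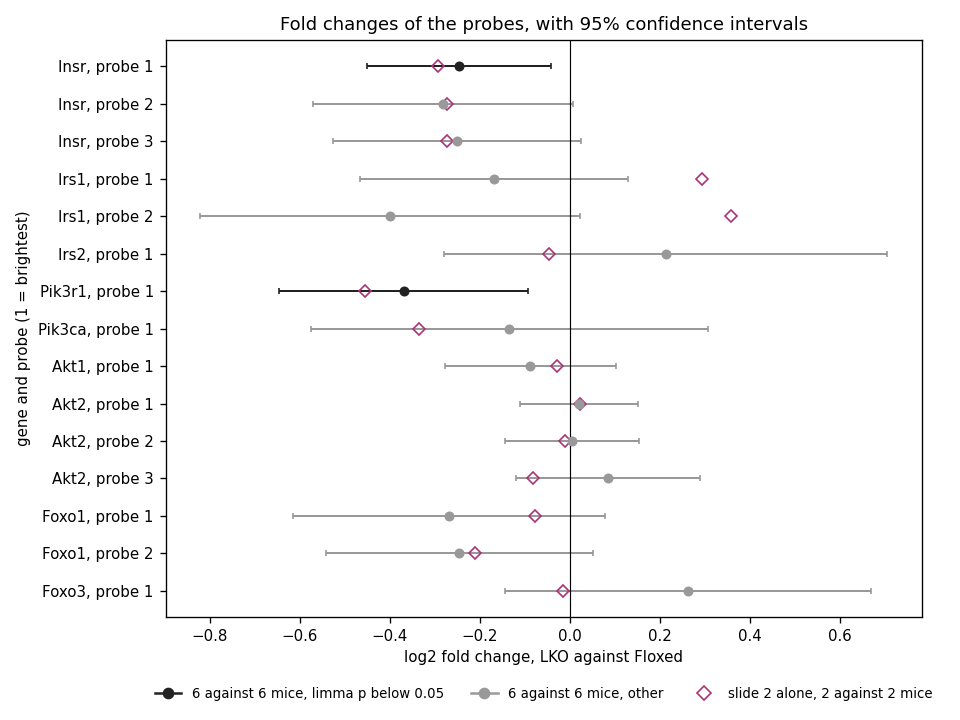
Log2 fold change of LKO against Floxed mice for each of the 15 probes (x axis), with the 95% confidence interval from limma over 6 against 6 mice, and the difference within slide 2 as an open diamond. The brightest probe of Insr and the probe of Pik3r1 have intervals below 0, the other Insr probes lie at -0.28 and -0.25, and the slide 2 values of both Irs1 probes, 0.29 and 0.36, fall on the other side of 0 from their overall values.

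Akt1 and Akt2 encode the kinases at the centre of the pathway, of which Akt2 is the better known for the metabolic actions of insulin. Akt1 (NM_009652, 1 probe) ranged from 11.49 to 11.79 in Floxed livers with a median of 11.71, and from 11.32 to 11.73 in LKO livers with a median of 11.58. The ranges overlapped, with LKO 5 alone below the Floxed mice. The difference of -0.09 (SE 0.09, 95% confidence interval -0.28 to 0.10) was not called, with an unadjusted limma p of 0.331 and an adjusted p of 0.925.

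Akt2 (NM_001110208, 3 probes) had the narrowest values of the 9 genes, from 12.39 to 12.55 in Floxed livers and from 12.45 to 12.57 in LKO livers, with medians of 12.48 and 12.47. Only 0.284% of the tested genes had a smaller SD between mice of a genotype. The difference of 0.02 (SE 0.06) was not called, with an unadjusted limma p of 0.744 and an adjusted p of 0.977. For this brightest probe the 95% confidence interval from -0.11 to 0.15 holds no difference larger than 0.15 in size. The other Akt2 probes gave 0.0039 and 0.08, also not called, and the interval of the latter was wider, from -0.12 to 0.29. The dimmest of these probes was highest among Floxed mice on the dim array of Floxed 2, at 7.74.

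Foxo1 encodes the FoxO factor best known in liver for driving glucose output when insulin is low (NM_019739, 2 probes). Floxed livers ranged from 10.26 to 10.94 with a median of 10.63, and LKO livers from 9.68 to 10.65 with a median of 10.45. LKO 5 stood apart at 9.68, below the other LKO mice, which lay between 10.40 and 10.65, inside the Floxed range. The difference of -0.27 (SE 0.16, 95% confidence interval -0.61 to 0.08) was not called, with an unadjusted limma p of 0.119 and an adjusted p of 0.754. Without LKO 5 it was -0.13, and on slide 2 it was -0.08.

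The dimmer Foxo1 probe gave -0.25 (limma, unadjusted p = 0.0977) and -0.21 on slide 2, also not called, and LKO 5 was lowest there as well, at 8.91. The array of LKO 5 was the dimmest of all, and its values lay below the Floxed mean for 9 of the 9 genes. Marker sums of other cell types stood high in LKO 5 for some types and not for others. The summed level of 10 endothelial cell markers, all well above background, was highest there (linear intensity 18511 to 21499 in Floxed and 17960.2 to 26149.6 in LKO mice). The sum of 6 cholangiocyte markers, with Krt7, Epcam and Sox9 well above background on some arrays only, was 1435 in LKO 5 against 513 to 622 in the other LKO mice and 521 to 1489 in Floxed mice. The stellate cell sum in LKO 5 was 14927, below the 15379 to 18928 of Floxed mice. The Kupffer cell and macrophage sum in LKO 5 was 29756, inside the Floxed range of 23327 to 48983. Between genotypes the exact permutation test gave p = 0.541 for the endothelial and p = 0.167 for the cholangiocyte sum. The part of array brightness and of these cells in the low Foxo1 value was not tested.

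Foxo3 encodes a second FoxO factor, known for stress and autophagy genes (NM_019740, 1 probe). Its probe was dim, at percentile 2.30 of the tested genes by mean intensity. Floxed livers ranged from 3.87 to 4.78 with a median of 4.15, and LKO livers from 3.90 to 4.91 with a median of 4.58. The ranges overlapped almost fully. The difference of 0.26 (SE 0.19, 95% confidence interval -0.15 to 0.67) was not called, with an unadjusted limma p of 0.188 and an adjusted p of 0.842. The value moved with the processing. With arrays scaled to a common 75th percentile it was 0.42 and called higher (limma, unadjusted p = 0.0469), without LKO 5 it was 0.38 and called (limma, unadjusted p = 0.0494), with normexp background correction it was 0.016, and on slide 2 it was -0.02.

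**Figure D3:**
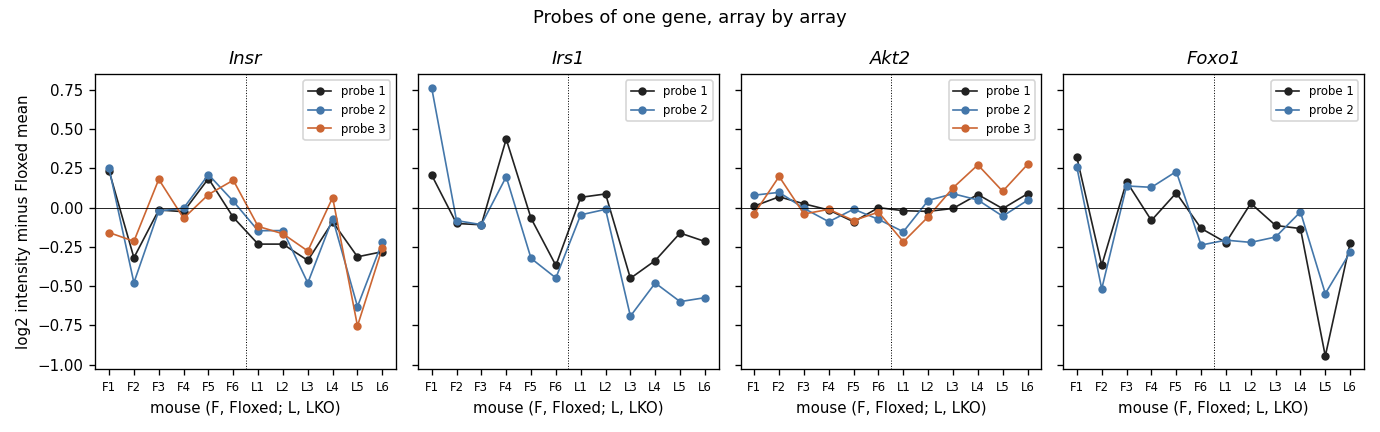
Log2 intensity of each probe minus its mean in Floxed mice (y axis) on the 12 arrays (x axis, Floxed mice F1 to F6 and LKO mice L1 to L6) for the 4 genes with several probes. The probes of Insr and Foxo1 all lie below 0 on the arrays of Floxed 2 and LKO 5, both Irs1 probes are lower in LKO 3 to LKO 6 than in LKO 1 and LKO 2, and the brightest Akt2 probe stays near 0.

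For the 4 genes with several probes, all probes of a gene gave the same sign of difference. Between the probes the log2 difference across the 12 arrays had an SD of 0.18 for Foxo1, 0.25 for Irs1, and 0.07 and 0.12 for Akt2. On the array of Floxed 2 the brightest probes of Insr and Foxo1 were both second lowest of the 12, and Insr, Irs1 and Pik3r1 were all lowest in LKO 3. These are descriptions of 12 livers read on shared arrays.

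The likeness of profiles was measured as the root mean square of the difference between 2 log2 profiles over the 12 arrays, each minus its own mean. The genotype difference is part of each profile. A gene chosen as near to a called member therefore tends to share the sign of its difference, and its p is no further evidence. Among the 9 genes, Akt1 and Akt2 were nearest at 0.12, Insr and Pik3r1 lay at 0.21, and Irs2 and Pik3ca were farthest apart at 0.63. On this measure genes that vary little lie near each other, so a small distance need not be a shared profile. The root mean square around the own mean was 0.187 for Insr and 0.279 for Pik3r1, so Insr lay nearer to a flat line than to Pik3r1. Over all tested genes, the genes with a symbol nearest to Insr were Arpc3, an actin-nucleating complex subunit, at 0.0996, Socs7, of the suppressors of cytokine signaling, at 0.0997, and Garre1, a Rac effector, at 0.101, where the median gene lay at 0.274. None of these 3 was called, with unadjusted limma p from 0.142 to 0.232. When single arrays were omitted, each gained the limma call in 1 of 12 cases. Their differences were largest without the dim array of Floxed 2, at -0.16 for Arpc3, -0.22 for Socs7 and -0.20 for Garre1. Nearest to Pik3r1 were Tigar, a phosphatase that slows glycolysis, at 0.105, Amd2, of polyamine synthesis, at 0.105, and Lin7c, a junction scaffold, at 0.113, where the median gene lay at 0.341. Lin7c was called lower, with a difference of -0.35 (limma, unadjusted p = 0.00802, adjusted p = 0.383), but not with a common 75th percentile (-0.19, limma, unadjusted p = 0.117), with normexp (-0.09, limma, unadjusted p = 0.168) or with slide as a fixed block (-0.33, limma, unadjusted p = 0.141). The difference was -0.27 for Tigar (limma, unadjusted p = 0.0526) and -0.30 for Amd2 (limma, unadjusted p = 0.0789).

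The other genes of the pathway were read from 8 lists by role. Together they held 155 tested genes beside the 9, of which 3 were called higher and 7 lower, that is 6.45%, below the 8.35% of all tested genes. Their median log2 fold change was -0.017. With slide as a fixed block, Grb10, Pdk4 and Pfkfb3 stayed called, and Crk, Sh2b2, Irs4, Ep300, Egr1 and Prkcq did not. The counts below include the genes described above where they are on a list, and a few genes stand on more than 1 list.

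Among receptors and adaptors, 12 of 16 genes were tested, 1 was called higher and 3 lower, Insr among them, and the median was -0.05. Crk, an adaptor of tyrosine kinase signals, was lower by a difference of -0.39 (limma, unadjusted p = 0.0174, adjusted p = 0.447). This is its brightest probe, and its 3 probes gave differences of unlike size, from -0.83 to -0.055. For Crk 5 of 6 LKO mice lay below all Floxed mice, LKO 1 lay above them, and the slide 2 difference was -0.10. Sh2b2, an adaptor that binds the insulin receptor, gave -0.38 (limma, unadjusted p = 0.0470, adjusted p = 0.592) and Irs4, a substrate known mainly outside the liver, gave 0.44 (limma, unadjusted p = 0.0433, adjusted p = 0.579), both with overlapping ranges. The exact permutation test gave p = 0.0801 for Sh2b2 and p = 0.0714 for Irs4, and when single arrays were omitted, the limma call was lost in 8 and 7 of 12 cases.

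Of PI3K, PDK1 and mTORC2 genes, 17 of 19 were tested and Pik3r1 alone was called, with a median of -0.02. Of 24 Akt kinases and Akt substrates, all tested, 0 were called by limma at the unadjusted threshold and 0 by the methods' t-test, with differences from -0.22 to 0.48 and a median of -0.04.

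Of the brakes on insulin signaling, phosphatases and inhibitors that act on the receptor, the adaptors or Akt, 26 of 29 were tested. They were lower in LKO mice in 21 cases and higher in 5, with a median of -0.08 and a range from -0.95 to 0.38, but Grb10 alone was called. Within slide 2 several of these 21 were higher in LKO mice, by up to 0.18. Whether the brakes moved together was not tested. Grb10, an adaptor that binds and inhibits the insulin receptor, ranged from 4.50 to 4.93 in Floxed and from 4.11 to 4.47 in LKO mice. All 6 LKO mice lay below all 6 Floxed mice, a lack of overlap found for 0.296% of all tested genes. The difference was -0.46 (SE 0.09, limma, unadjusted p = 0.000275, adjusted p = 0.241), and the exact permutation test gave p = 0.00216, the smallest p that 6 against 6 mice allow. On slide 2 the Grb10 difference was -0.62. Its probe was dim, at percentile 4.08 of mean intensity, and the size of its difference depended on the processing. It was -0.32 with arrays scaled to a common 75th percentile (limma, unadjusted p = 0.0148) and -0.17 with normexp background correction (limma, unadjusted p = 0.00505), called in both.

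Of FoxO factors and their regulators, 23 of 25 were tested, with a median of -0.02, and Ep300 was called lower. Ep300, an acetyltransferase that acts as a FoxO coactivator, had a difference of -0.49 (SE 0.13, limma, unadjusted p = 0.00240, adjusted p = 0.307) and of -0.41 on slide 2. With slide as a fixed block Ep300 was not called (limma, unadjusted p = 0.0768), and with normexp the difference was -0.24 (limma, unadjusted p = 0.0171). Ep300 was lowest among Floxed mice in Floxed 2, at 6.29, and without this mouse the difference was -0.58.

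**Figure D4:**
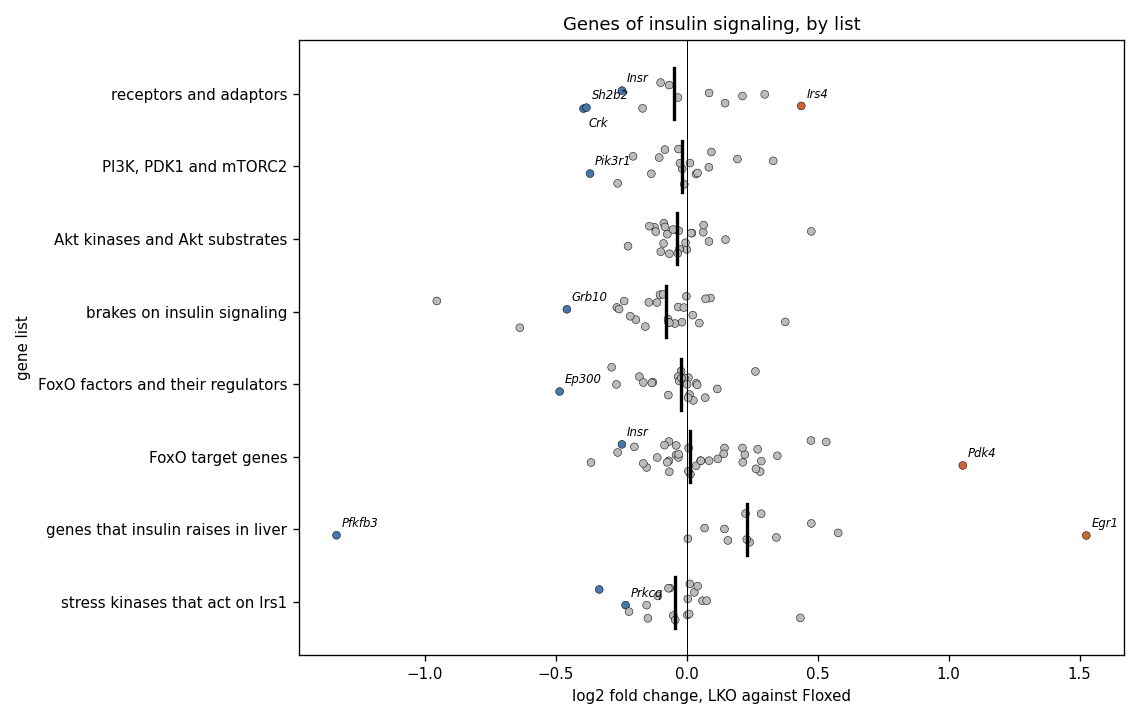
Log2 fold change of LKO against Floxed mice (x axis) for the tested genes of 8 lists of insulin signaling (y axis, points shifted at random within a row), with the median of each list as a bar, genes called lower in blue, called higher in orange and the others in grey. Grb10, Ep300, Pik3r1 and Insr stand to the left of 0 on their lists, and Egr1 at 1.53 and Pfkfb3 at -1.34 stand farthest out.

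FoxO target genes show the last step of the pathway, and 37 of 38 were tested. Pdk4 was called higher and Insr lower, the difference was positive for 21 and negative for 16, and the median was 0.01. Pdk4, which blocks glucose oxidation by inhibiting pyruvate dehydrogenase, ranged from 7.13 to 8.13 in Floxed and from 7.80 to 9.20 in LKO mice. The ranges overlapped only between Floxed 4 at 8.13 and LKO 3, LKO 4 and LKO 6 at 7.80 to 8.08. The difference was 1.05 (SE 0.27, limma, unadjusted p = 0.00176, adjusted p = 0.280), and on slide 2 it was 1.87.

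The targets that mark hepatic FoxO action most directly were not called. G6pc, the enzyme that releases free glucose, was 14.27 ± 0.43 (SD, n = 6) in Floxed and 14.23 ± 0.64 (SD, n = 6) in LKO mice, with a 95% confidence interval of the difference from -0.65 to 0.57. The slide 2 difference of G6pc was 0.75. Pck1, the entry enzyme of gluconeogenesis, gave -0.37 (95% confidence interval -1.19 to 0.46, limma, unadjusted p = 0.358), and LKO 5 stood apart at 12.97 below the other LKO mice at 14.32 to 15.11. Igfbp1, a secreted binding protein that insulin represses, gave 0.47 (95% confidence interval -0.41 to 1.36, limma, unadjusted p = 0.267), 1.10 on slide 2, and -0.0093 without both dimmest arrays. For these 3 genes the spread between mice of a genotype was large beside the difference, and the intervals include changes in both directions. The hour of dissection and whether the mice were fasted before it are not given in the sources used here.

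Of genes that insulin raises in liver, 13 of 14 were tested. They were higher in LKO mice in 12 cases, with a median of 0.23, and the gene that was lower was Pfkfb3. Within slide 2 most of these 12 were lower in LKO mice instead, with differences down to -1.54. Whether the genes of this list moved together was not tested. Only Egr1 and Pfkfb3 were called, 2 of 13. Egr1, an immediate early transcription factor, had a difference of 1.53 (SE 0.56, limma, unadjusted p = 0.0168, adjusted p = 0.440) and of 1.06 on slide 2, where with slide as a fixed block it was not called (limma, unadjusted p = 0.279). Pfkfb3, which makes the allosteric activator of glycolysis, had a difference of -1.34 (SE 0.38, limma, unadjusted p = 0.00399, adjusted p = 0.333), and LKO 2 was lowest at 6.64. On slide 2 the Pfkfb3 difference was -1.90.

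Of 19 stress kinases that act on Irs1, all tested, 2 were called, both lower, and the median was -0.04. Prkcq, a protein kinase C isoform, had a difference of -0.23 (limma, unadjusted p = 0.0402, adjusted p = 0.569). On slide 2 the Prkcq difference was -0.0022. The Prkcq call was lost in 6 of 12 cases when single arrays were omitted, with a common 75th percentile (-0.09, limma, unadjusted p = 0.330), with normexp (-0.08, limma, unadjusted p = 0.264) and with quantile normalization over the filtered probes only (-0.19, limma, unadjusted p = 0.0758).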

How the data were processed

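Mouse GE 4 x 44K v2 arrays were read in a single color. The authors deposited, for each array, spot intensity as the scanner software gives it (Agilent Feature Extraction, version 9.5.1.1 per the labels, with a later version in the file headers): raw median intensities and a background-subtracted, detrended intensity, neither normalized between arrays. The deposited 0 or 1 flags mark outliers, saturation and signal well above background. The authors also deposited a table of quantile-normalized intensity. The methods name the RiboPure kit and the labels TRIzol with a Promega kit for the RNA.

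Here the background-subtracted intensity was taken to log2 and quantile-normalized, 1377 control spots and outlier spots (0.298%) were left out, spots of a probe were averaged, and 20404 of 39429 probes, those well above background on every array, entered the fit. This mark replaced the detection p-value of the methods. A RefSeq accession was given for 28389 probes, of which 94.3% were found in the RefSeq gene table of GRCm38.p6. As the array was designed on another build, coordinates are given for RefSeq promoter windows only. The brightest probe stood for a gene. limma 3.58.1 (R 4.3.3) was fitted to all 16916 genes without covariates. No spot was saturated, and the number of arrays limits the precision. Single values were tested over all 924 arrangements of 6 against 6 mice.

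The replicates are separate mice. The main fit did not pair them. Controls were littermates and the animal numbers of same-numbered mice are consecutive, but the labels do not tie a number to a litter, and deviations of same-numbered mice correlated at -0.24 to 0.32. The members and lists were chosen with earlier results of these data known. Genes named are the 9 members with all probes, Phgdh, G6pc, Pck1 and Igfbp1, the called genes of each list (at most the 6 with the lowest p), and the 3 genes nearest in profile to each called member, and 1 gene of these is not reported here. Alternatives covered normalization, background correction, the authors' table, filters, flags, probes of a gene, threshold, test, slide, pairing and single arrays. Testing every probe on its own and leaving out both dimmest arrays were added after the data were seen. The fitting code was tested on simulated data.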

Additional observations from a re-analysis of the deposited data

Results flagged for a closer look

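For each named gene and each member probe, the extreme arrays of a genotype were set against the nearest of the others, as the gap over the whole range. In 7 of 70 groups of 6 arrays this passed Dixon's 95% critical value, where chance gives about 1 in 20, or 3.5. All 7 were on the dimmest array of a genotype, Floxed 2 or LKO 5. LKO 5 had the lowest LKO value of Foxo1, 9.68, with the other LKO mice at 10.40 to 10.65, and of Pck1, 12.97, with the others at 14.32 to 15.11. For Floxed 2, Grb10 was lowest at 4.50, against 4.77 to 4.93, Ep300 was lowest at 6.29, against 6.78 to 6.94, and Garre1 was lowest at 8.12, against 8.47 to 8.61. The second Insr probe was lowest there at 6.01, against 6.47 to 6.74, and the dimmest Akt2 probe was highest at 7.74, against 7.46 to 7.53. The part of array brightness in these values was not tested.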

How the results depend on the processing

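The direction of Insr, Pik3r1, Pik3ca, Akt1, Akt2 and Foxo1 was kept under each of the 15 settings run beside leaving out single arrays, with Insr from -0.30 to -0.24 and Pik3r1 from -0.46 to -0.25. Some of these settings could not turn a direction. Loosening the filter on dim probes or keeping flagged spots returned the main differences of these genes, and the threshold and the test act on the call only. Of the 9 genes, 0 were called after Benjamini-Hochberg adjustment, with an added minimum of 1 on the log2 scale, or with slide as a fixed block, and 3 were called with scaling to the 75th percentile, Foxo3 being the third. The count of called genes over the whole table was 0 after adjustment, 88 with that minimum, 317 with slide as a fixed block and 2791 of 32524 without the filter on dim probes. With each array left out in turn it lay between 1103 and 1837, and between 1 and 3 of the 9 genes were called, 1 without Floxed 5 and 3 without LKO 5. Slide as a fixed block turned the sign of Irs1 (0.29), Irs2 (-0.046), Foxo3 (-0.015) and G6pc (0.75). G6pc also turned with normexp (0.012) and in 4 cases of leaving out an array (range -0.19 to 0.15), and Igfbp1 turned without both dimmest arrays (-0.0093). The cause was not tested. Whether same-numbered mice were littermates is not given. Of 6 same-numbered correlations 3 were above 0.1, and 2 of 6 mice matched their own number best, so the mice were not treated as pairs. With the replicate block 1428 genes were called, 720 higher and 708 lower, and 2 of the 9 genes, Insr (limma, unadjusted p = 0.0377) and Pik3r1 (limma, unadjusted p = 0.000771). Between same-numbered mice Pik3r1 was lower in LKO in 6 of 6 cases, with differences from -0.49 to -0.26, and Insr in 5 of 6, from -0.50 to 0.09. No same-numbered mice shared a slide. The replicate block and these differences therefore carry slide together with genotype and cannot separate them. With 6 mice a genotype and 4 on the shared slide, the 95% confidence intervals of the 9 genes reached from -0.65 to 0.71, and the dim probe of Foxo3 moved from 0.26 to 0.016 with normexp.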
